A study of Mus musculus with 2 samples.

Results

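The drug and steroid detoxification enzymes of the mouse colon are described here as 87 genes of 19 enzyme families, out of 31053 genes listed in the matrices. The members were chosen by symbol and by their own UMI totals: a gene belongs if its symbol starts as those of the glutathione transferases (Gst, Mgst), UDP-glucuronosyltransferases (Ugt1, Ugt2), sulfotransferases (Sult), aldo-keto reductases (Akr1), carboxylesterases (Ces1, Ces2) or cytochromes P450 (Cyp, without Cyp51), and if it had at least 50 UMIs over both libraries. A UMI, or unique molecular identifier, marks 1 captured RNA molecule. The pattern matched 193 symbols, of which 106 had fewer than 50 UMIs and 50 of those had 0. Cyp26a1 with 59 UMIs and Sult5a1 with 64 lay just inside the threshold, and Cyp4f17 with 45 and Cyp11a1 with 39 lay just outside it. That a member was detected at all was therefore fixed by the choice and is not a result.

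Single-cell RNA sequencing (10x Genomics) was done on cells isolated from the colonic crypts of C57BL/6 mice at an age of 4 weeks, with 1 library per genotype. One library came from M14(f/f);Villin-Cre mice, called cKO here, in which a Cre recombinase driven by the villin promoter acts in gut epithelial cells. The other, the control library, came from mice whose genotype label is M14(f/f), the same floxed alleles without Cre, although the sample title says Wt. M14 is read here as Mettl14, which forms the enzyme that writes m6A marks on RNA together with Mettl3. Cells of 3 mice were pooled per genotype before capture, so there is no replicate, no error between animals and no test, and every interval is a 95% interval that covers counting error only.

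Detoxification enzymes are commonly grouped by the order in which they act on a foreign compound, a steroid or a lipid mediator. Phase 1 enzymes (cytochromes P450, aldo-keto reductases, carboxylesterases) add or uncover a reactive group, and phase 2 enzymes (sulfotransferases, UDP-glucuronosyltransferases, glutathione transferases) attach a polar group that lets transporters export the product. In the colon these enzymes are best known from absorptive colonocytes, which face luminal compounds, although many glutathione transferases are made by most epithelial cells.

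The cKO library held 89729527 UMIs in 9225 cell barcodes and the control library 111239295 UMIs in 10181 barcodes, with 33 barcode sequences found in both. Filtering left 7072 cKO and 9077 control cells, among them 6049 cKO and 8705 control epithelial-like cells. The classes compared were colonocyte-like (688 cKO and 954 control cells), goblet-like (2459 cKO and 3576 control), cycling-like (1529 cKO and 2042 control) and enteroendocrine-like cells (386 cKO and 225 control). The libraries stood apart: 16 of 21 epithelial clusters were at least 90% of 1 library. Colonocyte-like cells were mostly cluster 12 in cKO and clusters 6 and 25 in control, goblet-like cells clusters 1 and 4 in cKO and 0, 7, 9, 17 and 18 in control, and cycling-like cells clusters 3 and 16 in cKO and 2 and 8 in control. Enteroendocrine-like cells came from clusters 14 and 23 in both libraries. The summed level of the 12 colonocyte markers, all detected in both libraries, was 12047 CPM (UMIs of the gene per 1e6 UMIs of all genes) in cKO and 99554 CPM in control colonocyte-like cells, so cells of this name were not alike in the 2 libraries. Goblet-like clusters were also unlike. Of their top 10 leading genes, 4 and 2 were goblet markers in cKO clusters 1 and 4. In control clusters 17, 18 and 9 they were 5, 2 and 2. In control clusters 0 and 7, with 1306 and 804 control cells, they were 0 and 1. Mettl14 itself had 5.06 CPM in cKO and 4.76 CPM in control epithelial-like cells, but which exons are deleted is not stated, so this level checks nothing. Xist had 311 CPM in cKO and 0.0648 CPM in control epithelial-like cells, and 4 Y-linked genes summed to 0.0728 CPM in cKO and 103 CPM in control, so genotype and sex of the mice cannot be told apart in any value below.

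In the pooled epithelial-like cells, the detoxification genes together made up 4634 CPM in cKO and 6172 CPM in control. The summed level was lower in cKO colonocyte-like cells, at 6759 CPM against 15955 CPM in control (2.36-fold lower, 2.34 to 2.38). It was higher in cKO goblet-like cells, at 3877 CPM against 3173 CPM in control (1.22-fold higher, 1.21 to 1.23). Cycling-like cells had 3787 CPM in cKO and 4969 CPM in control, and enteroendocrine-like cells 2982 CPM in cKO and 3796 CPM in control. The summed level thus did not stand on the same side in every class. Such a sum is weighted to a few abundant genes and does not speak for most members. In goblet-like cells Mgst3 and Akr1c21 together differed by more than the sums did. In colonocyte-like cells Cyp2c55 and Mgst3 made up most of the difference. CPM here is not divided by gene length, so levels are compared between cells and not between genes, and in a class as a whole fewer cells that make an RNA and less RNA per cell cannot be told apart.

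Genes were counted as different when they had a mean of at least 10 CPM over the 2 libraries in a class and a log2 ratio of CPM + 1, cKO over control, of at least 2-fold in size. In epithelial-like cells 48 of the 87 members passed that level, and 5 were at least 2-fold higher and 17 at least 2-fold lower in cKO, beside 5.56% of all genes higher and 4.68% lower. In colonocyte-like cells 51 passed, 7 higher (24.2% of all genes) and 27 lower (11.3% of all genes). In goblet-like cells 37 passed, 9 higher (4.71% of all genes) and 6 lower (5.59% of all genes). In cycling-like cells 39 passed, 3 higher (4.96% of all genes) and 11 lower (3.73% of all genes). In enteroendocrine-like cells 39 passed, 1 higher (11.6% of all genes) and 15 lower (6.85% of all genes). With coarser clusters (Leiden resolution 0.5 instead of 1) the colonocyte-like class gave 4 higher and 20 lower members, beside 8.33% of all genes higher and 8.73% lower. A member could pass through the library in which it was high, so the passing members are not the whole set. The median log2 ratio over all 87 members was -0.38 in epithelial-like, -0.96 in colonocyte-like, -0.03 in goblet-like, -0.26 in cycling-like and -0.42 in enteroendocrine-like cells. That of the passing members was -0.43 in epithelial-like, -1.18 in colonocyte-like, 0.22 in goblet-like, -0.26 in cycling-like and -0.39 in enteroendocrine-like cells, beside -0.04, 0.18, -0.12, -0.05 and 0.13 in the same order of classes for all genes at that level.

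Of the 55 members at a mean of 10 CPM or more in at least 1 of the 4 classes, 34 were at least 2-fold lower in cKO in at least 1 class (15.1% of all genes at that level) and 12 at least 2-fold higher (27.8% of all genes). Gsta3 and Gsta4 were on both lists. The reductase Akr1c19 and the sulfotransferases Sult1a1, Sult1b1 and Sult1d1 were at least 2-fold lower in all 4 classes, and Akr1c21 was at least 2-fold higher in all 4. These are 4 lower and 1 higher of 31 members at a mean of 10 CPM or more in all 4 classes, beside 1.01% of all such genes lower and 1.16% higher in all 4. In none of the 4 classes was that level reached by 32 members. The 4 lower genes were also lower in cKO T or NK-like cells, outside the epithelium. That class was not the same mix of cells in the 2 libraries. Its cluster 13, led by Ccl5 and Gzma, held 176 cKO and 353 control cells. Its cluster 20, led by Trdc and Il17a, held 217 cKO and 4 control cells. Per T or NK-like cell, Akr1c19 had 0.0127 UMIs in cKO and 0.0756 in control, and Sult1a1 0.0153 in cKO and 0.0896 in control. Sult1b1 had 0.0254 in cKO and 0.0728 in control there, and Sult1d1 0.00509 in cKO and 0.129 in control. Control cells of each epithelial class had more UMIs of each per cell, but T or NK-like cells are shallower. The part of this background in the epithelial differences was not tested. The median ratio of all genes at that level, cKO over control, had a log2 of 0.19 in colonocyte-like, -0.12 in goblet-like and 0.13 in enteroendocrine-like cells. Scaling by this median in place of total UMIs takes about that value off each log2 ratio of the class. The calls under that scaling are given with the other alternatives.

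**Figure D1:**
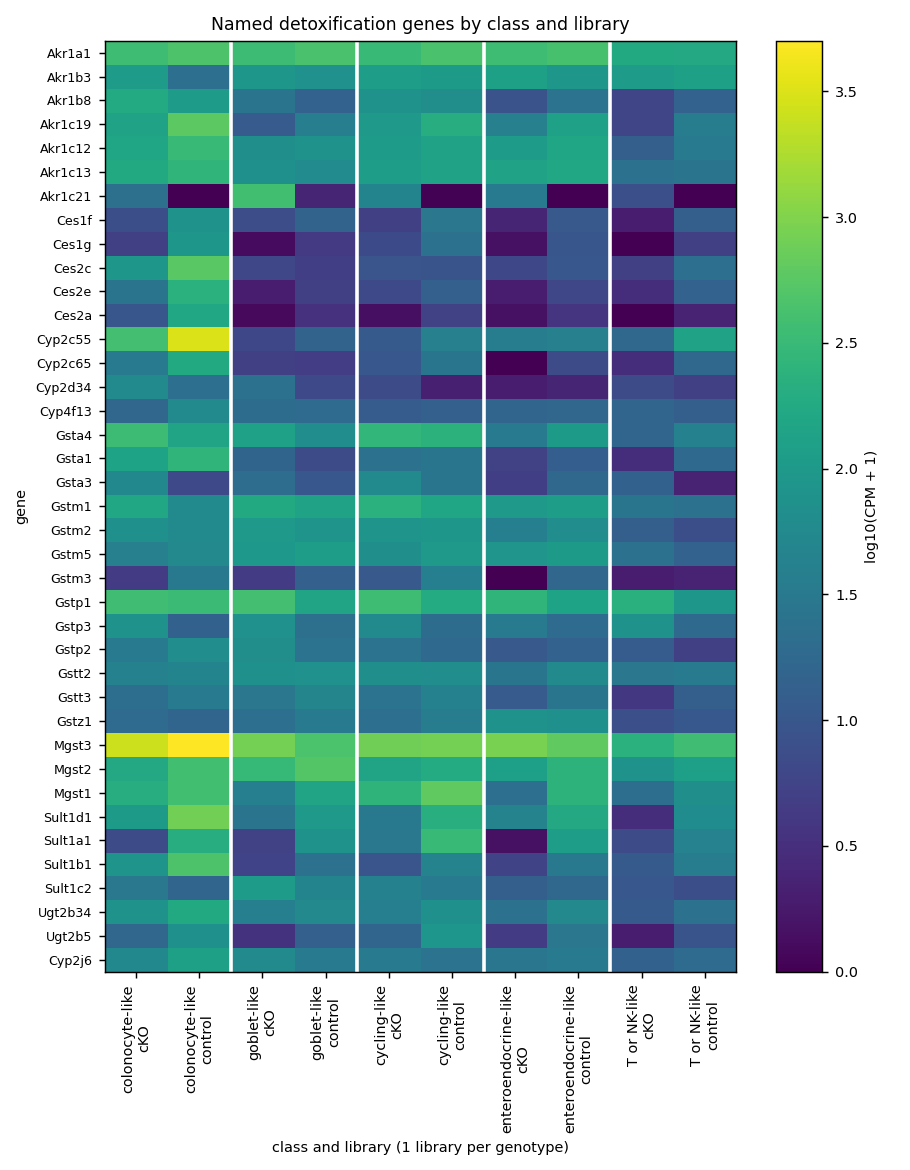
Heat map of log10(CPM + 1) for the 39 members given in full (rows) in the 4 epithelial classes and in T or NK-like cells (columns), with the cKO column left of the control column in each class and 1 library per genotype. The Akr1c21 row is bright in cKO goblet-like cells (381 CPM) and dark in control goblet-like cells (1.41 CPM), and the Cyp2c55 row is brightest in control colonocyte-like cells (3174 CPM).

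Akr1c21 and Akr1c19 lie in the same cluster of reductase genes and stood on opposite sides, Sult1a1 had the lowest log2 ratio of the sulfotransferases, and Cyp2c55 held most UMIs of the Cyp2c family, so the promoters of these 4 genes are shown. Each run holds the 250 bases before the annotated start, 5′ to 3′ on the gene's strand, from RefSeq on GRCm38.p6. Akr1c21 is at chr13:4573825-4574074 (plus strand), Akr1c19 at chr13:4233490-4233739 (plus strand), Sult1a1 at chr7:126676419-126676668 (minus strand) and Cyp2c55 at chr19:39006769-39007018 (plus strand). Capitals mark a match to any of 4 motifs searched on both strands, which were the core bound by AhR and ARNT (GCGTG), the antioxidant response element core (TGACNNNGC), a nuclear receptor half-site (AGTTCA) and a half-site of HNF1 (GTTAAT).
Akr1c21: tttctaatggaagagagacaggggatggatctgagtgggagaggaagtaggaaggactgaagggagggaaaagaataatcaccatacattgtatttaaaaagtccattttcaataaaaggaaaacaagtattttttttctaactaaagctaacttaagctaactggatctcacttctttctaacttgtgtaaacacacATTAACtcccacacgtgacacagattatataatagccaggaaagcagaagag
Akr1c19: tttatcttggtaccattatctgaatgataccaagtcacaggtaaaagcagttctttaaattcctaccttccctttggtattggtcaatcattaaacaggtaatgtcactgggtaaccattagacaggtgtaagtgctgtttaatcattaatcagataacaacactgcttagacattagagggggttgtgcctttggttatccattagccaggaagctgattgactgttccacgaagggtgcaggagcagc
Sult1a1: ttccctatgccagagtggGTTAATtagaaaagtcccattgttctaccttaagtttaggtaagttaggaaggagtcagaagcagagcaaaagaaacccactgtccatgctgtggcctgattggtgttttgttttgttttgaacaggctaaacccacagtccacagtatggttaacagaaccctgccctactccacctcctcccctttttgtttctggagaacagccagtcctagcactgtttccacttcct
Cyp2c55: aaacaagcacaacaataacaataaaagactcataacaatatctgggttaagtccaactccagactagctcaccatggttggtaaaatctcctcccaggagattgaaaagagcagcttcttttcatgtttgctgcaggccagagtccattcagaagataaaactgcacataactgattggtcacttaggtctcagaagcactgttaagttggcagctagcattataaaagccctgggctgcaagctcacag

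The Akr1c21 and Sult1a1 windows each held 1 HNF1 half-site, starting 52 and 232 bases before the start, and the Akr1c19 and Cyp2c55 windows held no match to the 4 motifs. Of 75 members with a promoter in the table, 14.7% held the HNF1 half-site, beside 6.43% of 32851 promoters of the same length. GCGTG was in 18.7% of the members' promoters and 28.2% of all, TGACNNNGC in 5.33% and 10.2%, and AGTTCA in 14.7% and 11.8%. A match describes letters in a window and is not a binding site, and no match says only that these letters are not in this window.

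Cytochromes P450 insert an oxygen atom into drugs, steroids and fatty acids. In colonocyte-like cells 11 of the 31 P450 members passed the level filter, of which 8 were at least 2-fold lower in cKO and 1 at least 2-fold higher, beside 11.3% of all genes lower and 24.2% higher in that class. The Cyp2c genes summed to 434 CPM in cKO and 3387 CPM in control cells of that class (7.8-fold lower, 7.59 to 8.02). Cyp2c55, a mouse enzyme that hydroxylates arachidonic acid, had most of the UMIs in that sum, with 387 CPM (5249 UMIs) in cKO and 3174 CPM (40064 UMIs) in control (8.2-fold lower, 7.96 to 8.44). In both libraries colonocyte-like cells held the highest Cyp2c55 level of the 4 classes. The next in control was 40.5 CPM, in cycling-like cells, where cKO had 10.1 CPM, beside 17 CPM in cKO and 134 CPM in control T or NK-like cells. Cyp2c65, of the same family, had 33.9 CPM (459 UMIs) in cKO and 177 CPM (2233 UMIs) in control colonocyte-like cells (5.22-fold lower, 4.72 to 5.79).

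Cyp2c55 was detected in 34.2% of cKO colonocyte-like cells (30.6 to 38) and in 90.1% of control ones (88 to 92) when every cell was thinned to 1700 UMIs. Without thinning the shares were 56.5% in cKO and 95.1% in control, with medians of 16795 UMIs per cKO cell and 10918.5 per control cell. T or NK-like cells, which should lack the enzyme, gave 1.61% in cKO and 5.92% in control at the same depth, with medians before thinning of 1939 UMIs in cKO and 1627 in control. Cells shallower than 1700 UMIs were left out, so that the shares cover 669 cKO and 932 control colonocyte-like, 2238 cKO and 3479 control goblet-like, 1245 cKO and 1632 control cycling-like, 319 cKO and 205 control enteroendocrine-like, and 249 cKO and 169 control T or NK-like cells. Control goblet-like cells had 0.199 Cyp2c55 UMIs per cell, under the 0.277 of control T or NK-like cells, so the goblet-like level cannot be told apart from background. The size of the Cyp2c55 difference in colonocyte-like cells depended on where that class was drawn. With the coarser clusters, which put 340 cKO and 1791 control cells in the class, its log2 ratio was -0.79 instead of -3.03, under 2-fold, and that of the whole Cyp2c family was -0.83. All other colonocyte-like folds rest on the same class boundary, also where no value with coarser clusters is given.

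Several other P450 genes were also lower in cKO colonocyte-like cells. Cyp3a13, a drug-oxidising P450 of mouse gut and the only Cyp3a member, had 16.2 CPM (219 UMIs) in cKO and 162 CPM (2044 UMIs) in control colonocyte-like cells (10.0-fold lower, 8.72 to 11.6). Cyp4f14, an omega-hydroxylase of leukotriene B4, had 18.3 CPM in cKO and 117 CPM in control in that class (6.37-fold lower, 5.56 to 7.32), and Cyp4f13, of the same family, had 15.9 CPM in cKO and 55.6 CPM in control (3.51-fold lower, 3.01 to 4.1). Cyp2s1, a P450 inducible through the dioxin receptor, had 1.62 CPM (22 UMIs) in cKO and 33.5 CPM (423 UMIs) in control colonocyte-like cells. Cyp2j6 had 53 CPM in cKO and 125 CPM in control there (2.35-fold lower, 2.15 to 2.57) but 58.5 CPM in cKO and 32.7 CPM in control in goblet-like cells, and with coarser clusters its colonocyte-like log2 ratio turned to 0.08. Cyp3a13, Cyp4f14 and Cyp2s1 were chosen after their values were seen.

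Of the P450 genes that passed the level filter in any of the 4 classes, only Cyp2d34 was at least 2-fold higher there. It had 23.8 CPM (837 UMIs) in cKO and 5.62 CPM (286 UMIs) in control goblet-like cells (4.24-fold higher, 3.7 to 4.87) and 55.3 CPM in cKO and 21.6 CPM in control in colonocyte-like cells (2.55-fold higher, 2.22 to 2.95). When the last 500 bases of its transcripts were cut into words of 60 bases (3′ words below), 12.6% of them also occurred in other Cyp2d genes and pseudogenes, so its count is uncertain. Cyp2d26, at the end of the same gene cluster and also chosen after its values were seen, had 1.55 CPM in cKO and 23.3 CPM in control in colonocyte-like cells (15-fold lower, 9.65 to 24.7). Cyp2d as a family therefore summed to 37.1 CPM in cKO and 12.5 CPM in control goblet-like cells, while 1 of its 2 members at a mean of 10 CPM in colonocyte-like cells was higher and 1 lower.

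Aldo-keto reductases use NADPH to reduce aldehydes and ketones, and the Akr1c branch acts mostly on steroids and prostaglandins. Akr1c21, a 3(17)-alpha-hydroxysteroid dehydrogenase of mouse, had the highest log2 ratio of CPM + 1 among the members that passed the level filter, in each of the 4 classes. In goblet-like cells it had 381 CPM (13387 UMIs) in cKO and 1.41 CPM (72 UMIs) in control (269-fold higher, 214 to 344). In cycling-like cells it had 545 UMIs in cKO, or 45.3 CPM, and 1 UMI in control, a ratio of 967 with a counting interval of 173 to 38269.8. Colonocyte-like cells had 301 UMIs in cKO and 0 in control, a ratio of at least 93.4 if 3 counts are put in place of 0 in control, that is, at least 93.4-fold higher, and enteroendocrine-like cells 65 UMIs in cKO and 0 in control, at least 22.8-fold higher by the same floor of 3 counts.

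Akr1c21 was not spread evenly over the cKO epithelium. At 1700 UMIs per cell, 19.8% of cKO goblet-like cells had it (18.2 to 21.6), against 0.23% of control goblet-like cells, and the share was 2.54% in cKO colonocyte-like, 3.05% in cKO cycling-like and 2.19% in cKO enteroendocrine-like cells. The unthinned goblet-like shares were 34.7% in cKO and 0.531% in control, with medians of 10846 UMIs per cKO cell and 12129 per control cell. T or NK-like cells of cKO gave 2.01% (0.655 to 4.62) at 1700 UMIs and 7.01 CPM from 7 UMIs, and the intervals of the cKO shares in the other 3 epithelial classes overlap that share. Per cell without thinning, Akr1c21 had 0.438 UMIs in cKO colonocyte-like, 0.356 in cycling-like and 0.168 in enteroendocrine-like cells, each above the 0.0178 of cKO T or NK-like cells, which are shallower. Of the control cells at this depth, 0 of 932 colonocyte-like cells had a UMI, which by a floor of 3 counts allows up to 0.322% of cells with a UMI at this depth, not of cells that express the gene. Within cKO, goblet-like cluster 1 had 452 CPM, goblet-like cluster 4 196 CPM, cycling-like cluster 16 119.9 CPM and the unnamed cluster 11, which both libraries share, 2.88 CPM.

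The direct neighbour of Akr1c21 among the members, Akr1c12, had 69.5 CPM in cKO and 77.2 CPM in control in goblet-like cells, a log2 ratio of -0.15. The 6 Akr1c members lie within 537.531 kb of chromosome 13 (GRCm38 positions 4049011 to 4586541), in the order Akr1c14, Akr1c18, Akr1c13, Akr1c19, Akr1c12 and Akr1c21. Akr1c19, which oxidises hydroxysteroids and dihydrodiols, had 136 CPM (1842 UMIs) in cKO and 595 CPM (7504 UMIs) in control colonocyte-like cells (4.38-fold lower, 4.16 to 4.61) and 10.7 CPM in cKO and 37.8 CPM in control in goblet-like cells (3.53-fold lower, 3.16 to 3.95). In cycling-like cells it had 96.6 CPM in cKO and 202 CPM in control (2.09-fold lower, 1.96 to 2.24), a log2 ratio that was -0.19 when no doublets were removed, and in enteroendocrine-like cells 40.0 CPM in cKO and 129 CPM in control (3.22-fold lower, 2.52 to 4.17). In clusters with at least 10% of their cells from each library, its epithelial log2 ratio was -0.69 instead of -1.71. Akr1c12 was past 2-fold in colonocyte-like cells, with 149 CPM in cKO and 315 CPM in control, and Akr1c13, which shares 21.6% of its 3′ words with Akr1c12, was under it in all 4 classes. Akr1c14, a 3-alpha-hydroxysteroid dehydrogenase, had 2.88 CPM in cKO and 32.2 CPM in control in colonocyte-like cells, and Akr1c18, a 20-alpha-hydroxysteroid dehydrogenase, 3.84 CPM in cKO and 17.7 CPM in control; both were chosen after their values were seen.

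Outside Akr1c the reductases were closer to even. Akr1a1, an aldehyde reductase also used in ascorbate synthesis, had log2 ratios between -0.42 and -0.25 in the 4 classes. Akr1b3, aldose reductase, had 109.7 CPM (1487 UMIs) in cKO and 21.3 CPM (269 UMIs) in control colonocyte-like cells (5.15-fold higher, 4.52 to 5.88), but its log2 ratio was 0.30 in goblet-like and 0.15 in cycling-like cells, and 0.64 in colonocyte-like cells with coarser clusters. The control colonocyte-like level of Akr1b3 was the lowest of the 8 class and library values, which ran to 126 CPM in cKO enteroendocrine-like cells. Akr1b8, a reductase of retinal and lipid aldehydes, was past 2-fold only in enteroendocrine-like cells among the 4, from 16 UMIs in cKO and 53 in control.

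Carboxylesterases hydrolyse ester and amide drugs and also lipid esters. In colonocyte-like cells 3 of 5 Ces1 and 3 of 5 Ces2 genes passed the level filter, and all 6 were at least 2-fold lower in cKO, beside 11.3% of all genes. Ces2 summed to 129.5 CPM in cKO and 959 CPM in control colonocyte-like cells (7.4-fold lower, 7.04 to 7.79). Ces2c, an acylcarnitine hydrolase, had 89.2 CPM (1209 UMIs) in cKO and 560.1 CPM (7070 UMIs) in control (6.28-fold lower, 5.91 to 6.68), Ces2e had 25.7 CPM in cKO and 229 CPM in control (8.9-fold lower, 7.96 to 9.98) and Ces2a had 8.63 CPM in cKO and 159 CPM in control (18.4-fold lower, 15.3 to 22.4). In the other 3 classes no Ces2 gene reached a mean of 10 CPM. With coarser clusters the colonocyte-like log2 ratio of Ces2c was -0.40 and that of the Ces2 sum -0.71, both under 2-fold.

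Ces1 summed to 13.4 CPM in cKO and 191 CPM in control colonocyte-like cells (14.2-fold lower, 12.2 to 16.7). Ces1g, a lipid hydrolase, had 3.98 CPM in cKO and 89.8 CPM in control (22.5-fold lower, 17.1 to 30.2) and Ces1f had 6.86 CPM in cKO and 75.3 CPM in control (11-fold lower, 8.86 to 13.7). These Ces1 folds hold for the class as drawn, since no value with coarser clusters is given for them here. Ces1f was also past 2-fold lower in goblet-like and cycling-like cells, and Ces1g in cycling-like cells. Ces1c, known as the carboxylesterase of mouse plasma, went the other way in goblet-like cells, with 31.4 CPM (1105 UMIs) in cKO and 0.0982 CPM (5 UMIs) in control (320.1-fold higher, 137 to 988). The Ces1 sum in goblet-like cells was therefore 42.9 CPM in cKO and 22.9 CPM in control, higher in cKO, while the same sum was lower in the other 3 classes. Ces1c, chosen after its values were seen, lies at one end of the Ces1 cluster on chromosome 8 (GRCm38 positions 93099015 to 93337308), which runs Ces1c, Ces1d, Ces1e, Ces1f and Ces1g.

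**Figure D2:**
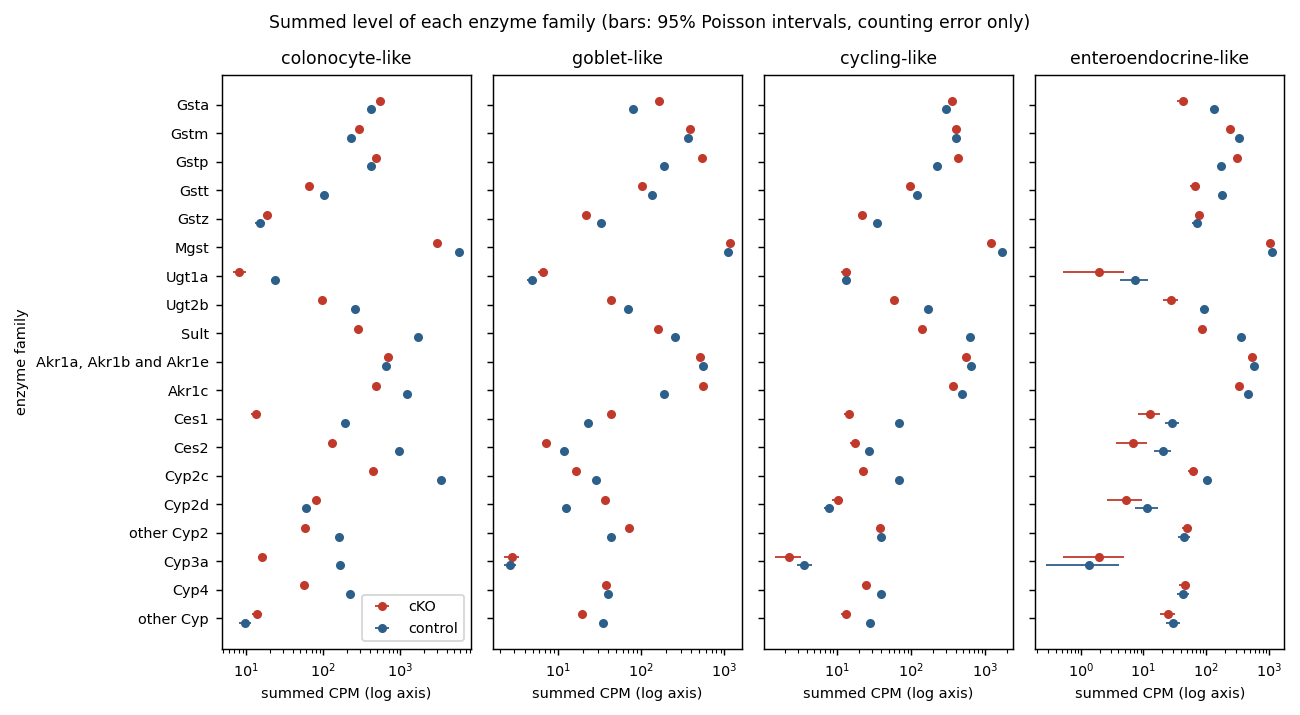
Summed level of each of the 19 enzyme families (rows) in CPM on log axes, in 4 panels for the epithelial classes, with cKO points drawn above control points and 95% Poisson intervals for counting error. In colonocyte-like cells the cKO points of Cyp2c, Ces1, Ces2, Cyp3a and Sult lie left of the control points, and in goblet-like cells the cKO points of Gstp, Akr1c and Cyp2d lie to the right.

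Sulfotransferases transfer sulfate to phenols, steroids and amines. The family summed to 179 CPM in cKO and 689 CPM in control epithelial-like cells (3.84-fold lower, 3.78 to 3.91). Its sum was lower in each class: 5.98-fold in colonocyte-like, 1.6-fold in goblet-like, 4.43-fold in cycling-like and 4.28-fold in enteroendocrine-like cells.

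Sult1a1, a phenol sulfotransferase, had the lowest log2 ratio of CPM + 1 among the members that passed the level filter, in each of the 4 classes. In control its level was highest in cycling-like cells among the 4 classes, and that class had 28.9 CPM (348 UMIs) in cKO and 325 CPM (6941 UMIs) in control (11.2-fold lower, 10.1 to 12.6). Colonocyte-like cells had 6.12 CPM (83 UMIs) in cKO and 204 CPM (2571 UMIs) in control (33.3-fold lower, 26.7 to 41.9) and goblet-like cells 4.27 CPM (150 UMIs) in cKO and 79.5 CPM (4046 UMIs) in control (18.6-fold lower, 15.8 to 22.1). Enteroendocrine-like cells had 1 UMI in cKO and 258 in control, or 118 CPM, 246-fold lower with a counting interval of 43.7 to 9740.0. At 1700 UMIs per cell Sult1a1 was found in 2.49% of cKO and 34.1% of control cycling-like cells (unthinned 7.39% of cKO and 57.3% of control, with medians of 3837 UMIs per cKO cell and 6699 per control cell), against 1.61% of cKO and 3.55% of control T or NK-like cells. The cKO shares of 1.05% in colonocyte-like and 0.492% in goblet-like cells did not exceed that of cKO T or NK-like cells. Per cell without thinning, Sult1a1 had 0.121 UMIs in cKO colonocyte-like and 0.061 in cKO goblet-like cells, above the 0.0153 of cKO T or NK-like cells, which are shallower. T or NK-like cells had 6.01 CPM in cKO and 43.3 CPM in control, so the control level in each epithelial class was above it.

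The Sult1a1 difference was also present inside clusters that hold cells of both libraries. In the unnamed cluster 11 it had 35.7 CPM in 205 cKO cells and 310.2 CPM in 491 control cells, and in cycling-like cluster 16 10.4 CPM in cKO and 165 CPM in control. In enteroendocrine-like cluster 14, which is led by Chgb, Chga and Tph1, it was at 0 CPM in cKO and 100.4 CPM in control, and in cluster 23, led by Pyy and Gcg, at 1.37 CPM in cKO and 152 CPM in control. The 67 cKO cells that fell in cycling-like cluster 2, where the other 1147 cells are control, had 119 CPM, between the 7.73 CPM of the cKO cells in cluster 3 and the 336 CPM of the control cells in cluster 2. Without cells that lie in a cluster led by the other library, a setting added after the data were seen, the cycling-like log2 ratio was -5.16 instead of -3.45.

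Sult1d1, a sulfotransferase of catecholamines in mouse, had 102 CPM (1377 UMIs) in cKO and 813 CPM (10264 UMIs) in control colonocyte-like cells (8.01-fold lower, 7.57 to 8.47) and 29.8 CPM in cKO and 205 CPM in control in cycling-like cells (6.87-fold lower, 6.17 to 7.67). Goblet-like cells had 26 CPM in cKO and 97.4 CPM in control (3.75-fold lower, 3.49 to 4.03) and enteroendocrine-like cells 44.4 CPM in cKO and 170.3 CPM in control (3.84-fold lower, 3.05 to 4.88). Sult1b1, which acts on thyroid hormones and phenols, had 82.5 CPM in cKO and 469 CPM in control colonocyte-like cells (5.68-fold lower, 5.32 to 6.06). Its log2 ratio was -2.09 in goblet-like, -2.26 in cycling-like and -2.43 in enteroendocrine-like cells. That of cycling-like cells turned to 0.48 in the 1 shared cycling cluster, 16, and that of colonocyte-like cells was -0.58 with coarser clusters. Of the sulfotransferases that passed the level filter in any of the 4 classes, only Sult1c2 was at least 2-fold higher there. It had 107 CPM (3776 UMIs) in cKO and 45.1 CPM (2295 UMIs) in control goblet-like cells (2.38-fold higher, 2.26 to 2.51). Sult2b1, the cholesterol sulfotransferase and a gene chosen after its values were seen, was 3.14-fold lower, 2.9 to 3.41, in cKO colonocyte-like cells (814 UMIs in cKO and 2383 in control) and had 14.6 CPM in cKO and 7.54 CPM in control in goblet-like cells.

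UDP-glucuronosyltransferases attach glucuronic acid to bilirubin, steroids and drugs. Of 7 members 2 passed the level filter in colonocyte-like cells, both Ugt2b and both lower, beside 11.3% of all genes. Ugt2b genes summed to 67.3 CPM in cKO and 152 CPM in control epithelial-like cells (2.26-fold lower, 2.19 to 2.33). Ugt2b5 had 15 CPM (180 UMIs) in cKO and 88 CPM (1878 UMIs) in control cycling-like cells (5.88-fold lower, 5.04 to 6.89), the class in which its control level was highest, and 15.6 CPM in cKO and 70.3 CPM in control in colonocyte-like cells (4.49-fold lower, 3.86 to 5.24). Ugt2b34 had 77.4 CPM in cKO and 177 CPM in control in colonocyte-like cells (2.29-fold lower, 2.12 to 2.46), 39.2 CPM in cKO and 71.3 CPM in control in cycling-like cells and 23.1 CPM in cKO and 53.7 CPM in control in enteroendocrine-like cells (2.32-fold lower, 1.65 to 3.32). The 3 Ugt1a members share 57.9% to 100% of their 3′ words with other genes, because Ugt1a transcripts join different first exons to common ones, so their UMIs cannot be divided between them, and none reached a mean of 10 CPM in any of the 4 classes.

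Soluble glutathione transferases conjugate glutathione to electrophiles. The pi class (Gstp) was at least 2-fold higher in cKO as a family, with 543 CPM in cKO and 259 CPM in control epithelial-like cells (2.1-fold higher, 2.07 to 2.13). In goblet-like cells the sum was 2.79-fold higher, in cycling-like cells 1.92-fold, in enteroendocrine-like cells 1.81-fold and in colonocyte-like cells 1.16-fold. Gstp3 had 74.2 CPM (2609 UMIs) in cKO and 22 CPM (1120 UMIs) in control goblet-like cells (3.37-fold higher, 3.15 to 3.62), 74.9 CPM in cKO and 13.2 CPM in control in colonocyte-like cells (5.66-fold higher, 4.81 to 6.71) and 57.8 CPM in cKO and 19.4 CPM in control in cycling-like cells (2.97-fold higher, 2.63 to 3.36).

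Gstp3 was also higher in the T or NK-like cells, outside the epithelium, with 78.1 CPM in cKO and 17.6 CPM in control. Those cells were not the same mix of clusters in the 2 libraries. At 1700 UMIs it was found in 9.24% of cKO T or NK-like cells (5.95 to 13.5) and 11.1% of cKO goblet-like cells (9.81 to 12.5), against 2.37% of control T or NK-like and 3.54% of control goblet-like cells. In cKO enteroendocrine-like cells it had 0.181 UMIs per cell, under the 0.198 of cKO T or NK-like cells, so it was not above their level there. Whether free RNA or RNA of the T or NK-like cells themselves gave that level was not tested. Among epithelial clusters, the unnamed cKO cluster 10, led by Il4i1, Ccl20 and Fabp5, had the highest Gstp3 level among the epithelial clusters with at least 50 cells, 146 CPM, and each of the 10 cKO clusters of that size lay between 24.6 and 146 CPM. The 16 control clusters of that size lay between 7.17 and 36.2 CPM.

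Gstp1 had 391 CPM (13745 UMIs) in cKO and 144 CPM (7311 UMIs) in control goblet-like cells (2.72-fold higher, 2.65 to 2.8) but 373 CPM in cKO and 336 CPM in control in colonocyte-like cells. Gstp2 had 66.4 CPM in cKO and 24.8 CPM in control in goblet-like cells (2.68-fold higher, 2.5 to 2.87) and was on the lower side in colonocyte-like cells, with 33.5 CPM in cKO and 65 CPM in control. Gstp1 and Gstp2 share 36.0% and 57.1% of their 3′ words with other genes, so how their counts divide is uncertain. Both are within 24.2 kb of Gstp3 on chromosome 19 (GRCm38 positions 4035407 to 4059569).

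The alpha class (Gsta) was higher in cKO goblet-like cells, with sums of 163 CPM in cKO and 79.8 CPM in control, and lower in cKO enteroendocrine-like cells, with 42.4 CPM in cKO and 132 CPM in control. Gsta3, which conjugates the aflatoxin epoxide in mouse, had 51.6 CPM (700 UMIs) in cKO and 5.47 CPM (69 UMIs) in control colonocyte-like cells (9.45-fold higher, 7.37 to 12.3) and 55.9 CPM in cKO and 26.8 CPM in control in cycling-like cells (2.08-fold higher, 1.86 to 2.33). In enteroendocrine-like cells it had 8 UMIs in cKO and 37 in control. Gsta4, which conjugates the lipid aldehyde 4-hydroxynonenal, had 348 CPM in cKO and 144 CPM in control in colonocyte-like cells (2.42-fold higher, 2.29 to 2.55) and 34.2 CPM in cKO and 103 CPM in control in enteroendocrine-like cells (3.0-fold lower, 2.29 to 3.98). With coarser clusters the colonocyte-like log2 ratios of Gsta3 and Gsta4 were 0.21 and 0.02. Gsta1 has 89.6% of its 3′ words in common with other genes and was past 2-fold higher only in goblet-like cells of the 4 classes.

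The mu class (Gstm) summed to 412 CPM in cKO and 383 CPM in control epithelial-like cells, with members on both sides. Gstm1 had 163 CPM in cKO and 56.6 CPM in control in colonocyte-like cells (2.87-fold higher, 2.64 to 3.13), but its log2 ratio there was -0.44 with coarser clusters. Gstm3 had 9.73 CPM (117 UMIs) in cKO and 38.4 CPM (820 UMIs) in control cycling-like cells (3.95-fold lower, 3.25 to 4.84) and 3.54 CPM in cKO and 30.1 CPM in control in colonocyte-like cells (8.5-fold lower, 6.29 to 11.7). Gstm2 and Gstm5 were under 2-fold in all 4 classes. Of the theta class, Gstt1, chosen after its values were seen, was highest in enteroendocrine-like cells of both libraries, with 29.4 CPM (61 UMIs) in cKO and 92.3 CPM (201 UMIs) in control (3.14-fold lower, 2.35 to 4.25), and Gstt2 and Gstt3 were past 2-fold lower in that class only. Gstz1, which also serves tyrosine breakdown, was likewise highest in enteroendocrine-like cells, with 77.6 CPM in cKO and 70.2 CPM in control, and under 2-fold in all 4 classes.

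**Figure D3:**
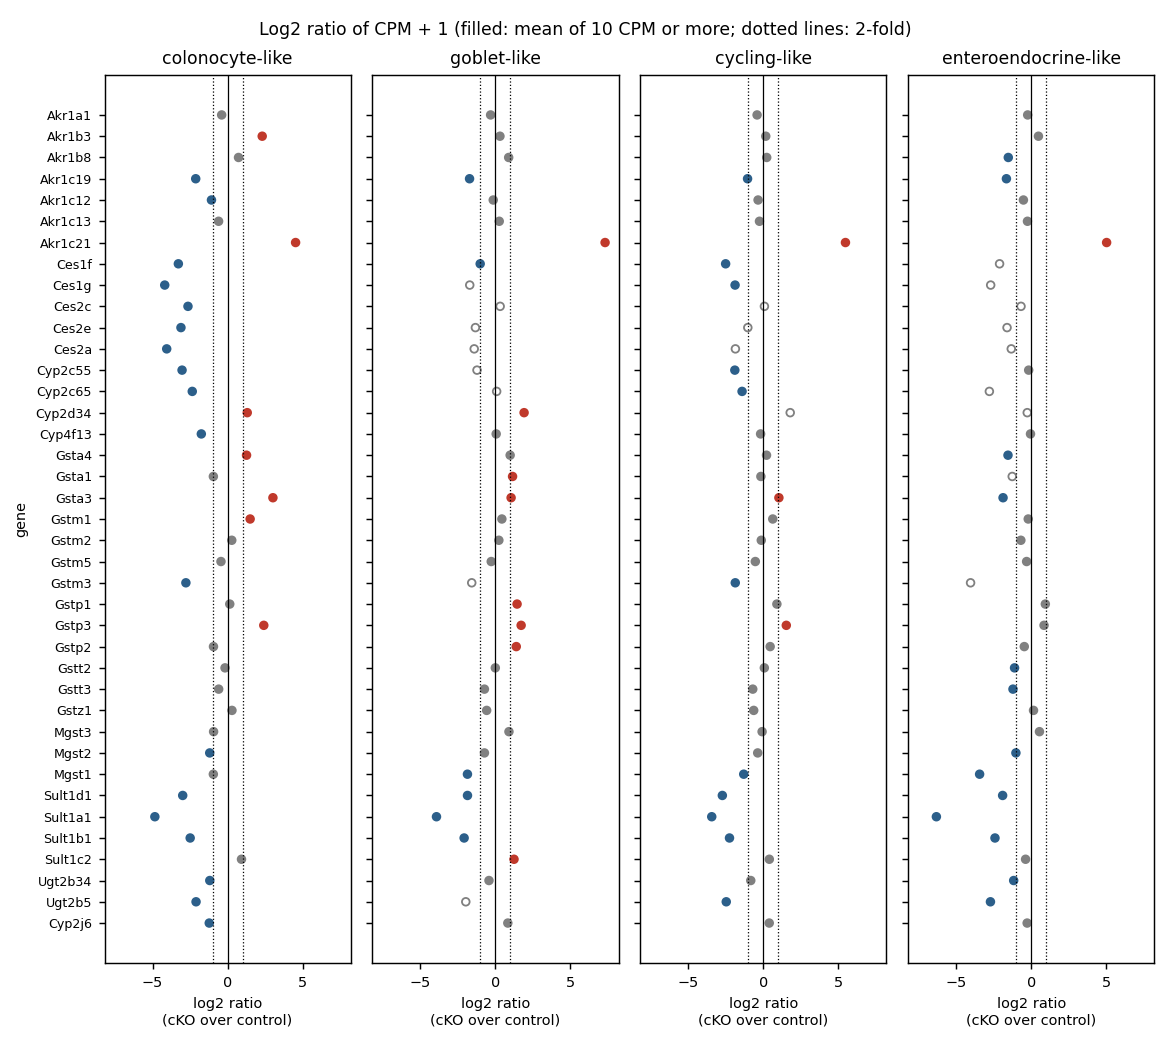
Log2 ratio of CPM + 1, cKO over control, for the 39 members given in full (rows) in the 4 epithelial classes (panels). Filled points had a mean of 10 CPM or more, with red for at least 2-fold higher and blue for at least 2-fold lower, open points were below that level, and dotted lines mark 2-fold. Akr1c21 lies right of the line in every panel, and Akr1c19, Sult1a1, Sult1b1 and Sult1d1 lie left of it in every panel.

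Microsomal glutathione transferases (Mgst) are membrane enzymes that conjugate or reduce lipid peroxides and make leukotriene C4. Mgst1 had 252 CPM (3029 UMIs) in cKO and 628 CPM (13394 UMIs) in control cycling-like cells (2.49-fold lower, 2.4 to 2.59), the class with its highest level in both libraries, 38.8 CPM in cKO and 145 CPM in control in goblet-like cells (3.72-fold lower, 3.51 to 3.95) and 21.2 CPM in cKO and 242 CPM in control in enteroendocrine-like cells (11.4-fold lower, 8.38 to 15.9). It was found in 15.2% of cKO and 55.2% of control cycling-like cells at 1700 UMIs (unthinned 30.9% and 70.2%), beside 0.803% of cKO and 5.33% of control T or NK-like cells. The difference did not appear in every cluster. In cluster 11 Mgst1 had 408 CPM in cKO and 367 CPM in control, and in cluster 2 the 67 cKO cells had 853 CPM and the control cells 668 CPM. In all epithelial clusters with at least 10% of cells from each library, 920 cKO and 878 control cells, its epithelial log2 ratio was -0.23 instead of -1.36. Those cells were not the same mix in the 2 libraries. Enteroendocrine-like cells, in which Mgst1 was lower in cKO, were 386 in cKO and 225 in control. Cells of the unnamed cluster 11 were 205 in cKO and 491 in control.

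Mgst3, a glutathione peroxidase that can also make leukotriene C4, had 2637 CPM (35746 UMIs) in cKO and 5023 CPM (63404 UMIs) in control colonocyte-like cells (1.9-fold lower, 1.88 to 1.93) and 835 CPM (29354 UMIs) in cKO and 448 CPM (22800 UMIs) in control goblet-like cells (1.86-fold higher, 1.83 to 1.9), on opposite sides and each under 2-fold. Mgst2 had 304 CPM in cKO and 507 CPM in control in goblet-like cells, its highest class in both libraries, and was past 2-fold lower in colonocyte-like and enteroendocrine-like cells.

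Within a library, colonocyte-like cells held the highest level for 23 of the 48 members at a mean of 10 CPM in cKO and for 27 of the 48 in control. Goblet-like cells held it for 11 in cKO and 8 in control, cycling-like cells for 6 in cKO and 9 in control, and enteroendocrine-like cells for 8 in cKO and 4 in control. The highest class was not counted for all genes. These counts therefore have no share of all genes beside them and are not read as a trait of the members. Sult1a1, Mgst1, Gstm1, Gstm3 and Gsta3 had their highest class in cycling-like cells of both libraries, and Akr1e1, Cyp2c68, Gstt1 and Gstz1 in enteroendocrine-like cells of both. Akr1e1 and Cyp2c68 were chosen after their values were seen. Ugt2b5 was highest in colonocyte-like cells of cKO and in cycling-like cells of control.

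**Figure D4:**
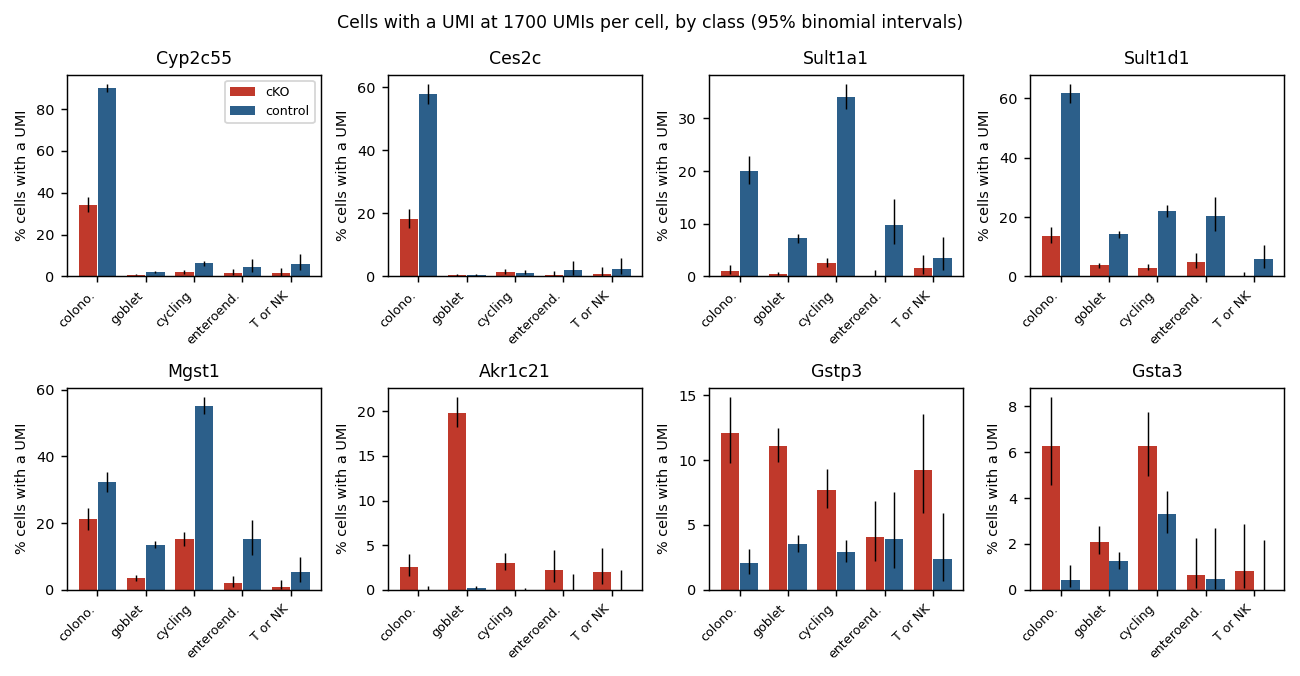
Share of cells with at least 1 UMI of 8 members after thinning to 1700 UMIs per cell, in percent, with 95% exact binomial intervals, for the 4 epithelial classes and T or NK-like cells (cKO bars left of control bars). Cyp2c55 bars stand at 34.2% in cKO and 90.1% in control colonocyte-like cells, and the Akr1c21 bar at 19.8% in cKO goblet-like cells, against 0.23% in control.

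Markers of other cells moved with several of these differences. In colonocyte-like cells the 10 cycling markers, all detected, summed to 929.6 CPM in cKO and 67.5 CPM in control, and the 10 goblet markers to 2441 CPM in cKO and 1656 CPM in control. In goblet-like cells the goblet markers summed to 50268 CPM in cKO and 66778 CPM in control. The colonocyte markers summed to 505 CPM in cKO and 3842 CPM in control cycling-like cells, and to 316 CPM in cKO (12 of 12 detected) and 4014 CPM in control T or NK-like cells (11 of 12), so the level was alike in those 2 classes of a library. The goblet markers summed to 3855 CPM in cKO and 18297 CPM in control enteroendocrine-like cells. The part of these levels in the members' differences was not tested. When the T or NK-like UMIs per cell of each library were subtracted, 10 of 34 passing members were at least 2-fold lower in cycling-like cells, beside 14.8% of all genes, and 15 of 35 in enteroendocrine-like cells, beside 24.8%. Without subtraction they were 11 of 39 beside 3.73% and 15 of 39 beside 6.85%, and whether they are the same members was not counted.

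**Figure D5:**
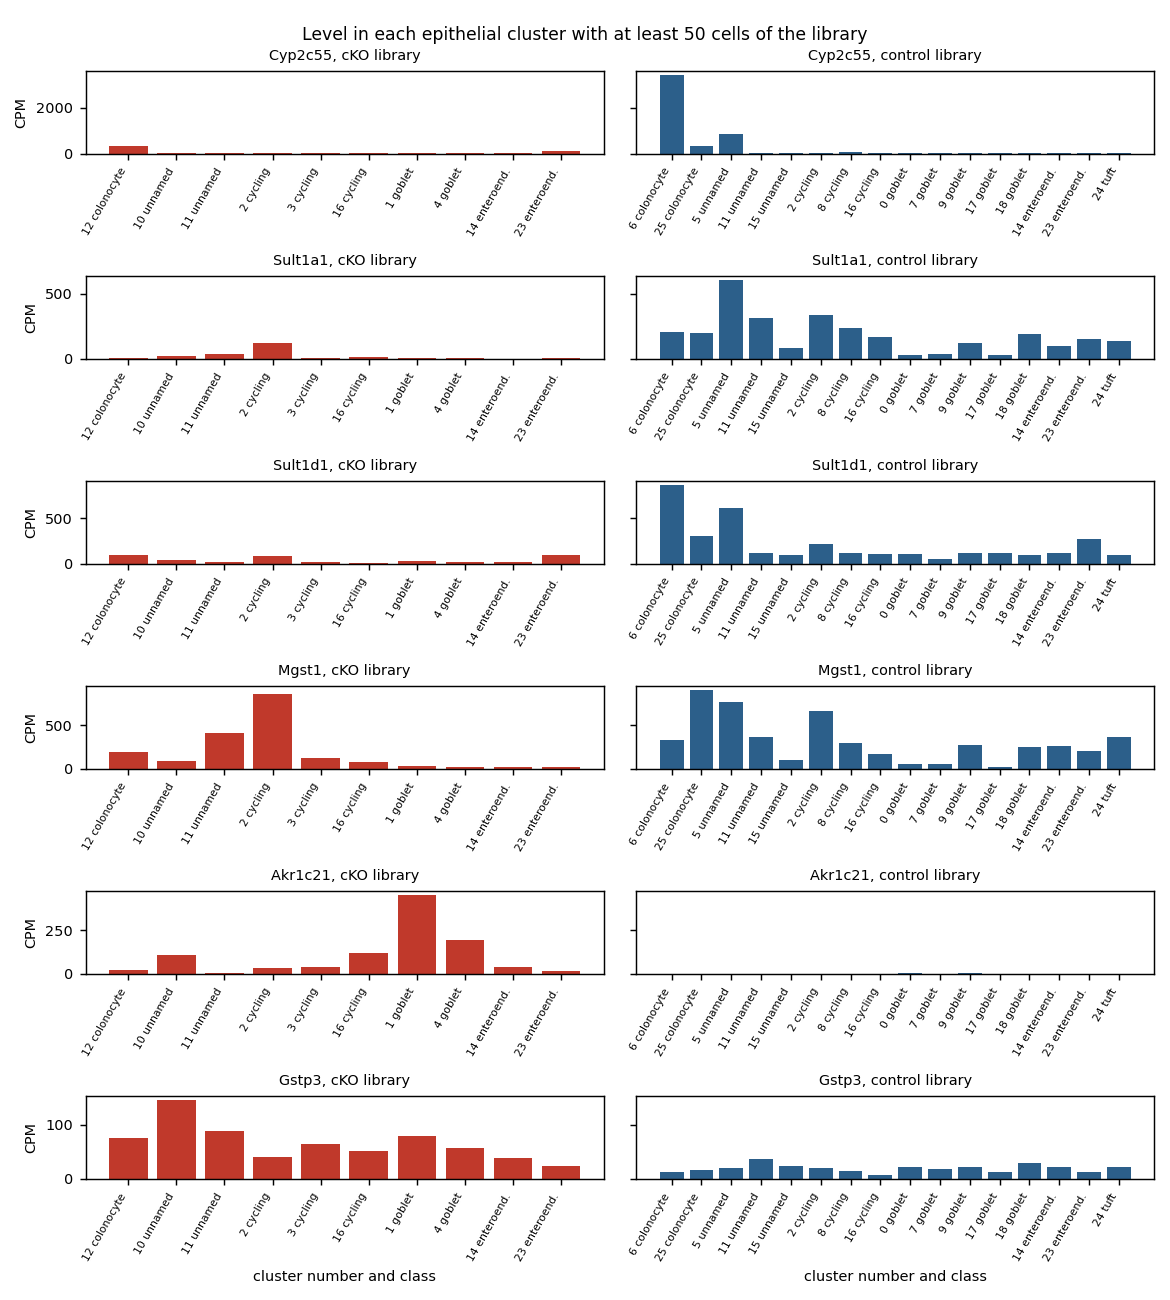
Level of 6 members in CPM (vertical axes, shared by the panels of a row) in each epithelial cluster with at least 50 cells of the library (horizontal axes, cluster number and class), with the cKO library in the left panels and the control library in the right panels. Cyp2c55 reaches 3462 CPM in control cluster 6 and 351 CPM in cKO cluster 12, and Akr1c21 reaches 452 CPM in cKO cluster 1.

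Cyp2c55, Sult1d1 and Akr1c19, whose highest control class was colonocyte-like, were not limited to cells of that name. Sult1a1, whose highest control class was cycling-like, is given beside them. The unnamed control cluster 5, of 924 control cells led by Reg3b, Reg3g, Gsdmc2 and Hao2, had 858 CPM of Cyp2c55, 609 CPM of Sult1a1, 613 CPM of Sult1d1 and 653 CPM of Akr1c19. Its Sult1a1 level was the highest of the control clusters with at least 50 cells. The cKO cluster 10 of 700 cells, which no control cell joined, had 19.6 CPM of Cyp2c55, 19.1 CPM of Sult1a1, 41.8 CPM of Sult1d1 and 72 CPM of Akr1c19. These unnamed clusters are given side by side without a ratio, since cluster 5 held only 31 cKO cells.

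Genes of the wider pathway, in 5 lists, were counted in epithelial-like cells, and Ugp2, Papss1, Papss2, Nat2 and Abcg2 among them were chosen after their values were seen. Among all genes of that class 5.56% were at least 2-fold higher and 4.68% at least 2-fold lower, and most lists are too short for their counts to be told from those shares. Of 14 nuclear receptors and other sensors of foreign compounds, 7 passed the level filter, 0 were at least 2-fold higher and 1 was at least 2-fold lower, the bile acid receptor Nr1h4 with 21.1 CPM in cKO and 49.2 CPM in control (2.34-fold lower). Rxra, the shared partner of these receptors, had the highest mean log2 ratio over the 4 classes among the 7 that passed, with 11.5 CPM in cKO and 9.1 CPM in control in epithelial-like cells. The 6 genes that supply electrons to P450 enzymes all passed and all stayed under 2-fold in epithelial-like cells. By mean log2 ratio over the 4 classes Cyb5a was lowest and Cyb5r3 highest of them. In epithelial-like cells Cyb5a had 215 CPM in cKO and 252 CPM in control, and Cyb5r3 82.2 CPM in cKO and 74.1 CPM in control.

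All 11 genes of cofactor supply passed, with 0 higher and 3 lower. Ugdh, which makes the UDP-glucuronic acid used by UDP-glucuronosyltransferases, had 29.3 CPM in cKO and 148 CPM in control (5.06-fold lower). Ugp2, which makes the UDP-glucose before it, had 69 CPM in cKO and 153 CPM in control, and Papss2, which makes the sulfate donor of sulfotransferases, 43.7 CPM in cKO and 99.8 CPM in control. Papss1, on the same list, was not lower, with 109 CPM in cKO and 101 CPM in control (1.08-fold higher). The glutathione peroxidase Gpx2 had the highest mean log2 ratio over the 4 classes of that list, 3127 CPM in cKO and 1625 CPM in control. Of 24 other phase 1 and 2 enzymes 13 passed, 2 higher and 1 lower: the carbonyl reductase Cbr3 had 437 CPM in cKO and 83.2 CPM in control (5.25-fold higher), the arylamine acetyltransferase Nat2 41.6 CPM in cKO and 11.7 CPM in control, and the retinal dehydrogenase Aldh1a1 3.31 CPM in cKO and 22.6 CPM in control (6.82-fold lower). Of 9 exporters 4 passed, 0 higher and 2 lower, Slc22a18 with 12.9 CPM in cKO and 45.8 CPM in control and Abcg2 with 15.3 CPM in cKO and 41 CPM in control, and Abcc3 had the highest mean log2 ratio over the 4 classes among the 4 that passed, with 38.1 CPM in cKO and 32.8 CPM in control.

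The 32 members that reached a mean of 10 CPM in none of the 4 classes had 59 UMIs (Cyp26a1, which breaks down retinoic acid) to 1759 UMIs (Gstm4, of the mu class) over both libraries, and included all 3 Ugt1a genes, 4 of 6 Cyp2d genes, 6 of 8 genes of the remaining Cyp2 families and 2 of 5 Ces2 genes. Their differences are not described one by one, since a fold of few UMIs carries wide counting error.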

How the data were processed

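The deposited matrices hold whole-number UMI counts per gene and cell barcode, 1 per genotype. The authors made them with Cell Ranger, version 3.1.0 per the file headers, while the submitters' processing notes name 3.0.0 and Seurat 3. Of build, annotation and kit end, nothing was given in the sources used here. The filter kept barcodes from 500 genes upward whose mitochondrial share was under 25% (2100 cKO and 1027 control barcodes fell out). Doublets were removed at a Scrublet score of 0.25 (53 cKO and 77 control cells, 0.744% and 0.841%), a value chosen with the scores in view, as the tool's own threshold marked 3 cKO and 2 control cells. Cells were clustered with scanpy 1.11.5 and leidenalg 0.10.2 (2000 variable genes, 30 components, 15 neighbours, resolution 1). All 193 pattern symbols, and mitochondrial, ribosomal, Y-linked and some other genes (1056 in all) were left out of the variable genes, so no member shaped a class. A cluster was named from at least 3 markers among its top 50 leading genes. The naming rules were set after the data were seen, and the members and gene lists were chosen with earlier results of these data known.

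UMIs were summed per class and library and scaled to CPM, the counts per 1e6 UMIs. Intervals are exact 95% Poisson for CPM, and exact conditional for ratios (scipy 1.17.1), and cover counting error only. With 1 library per genotype no test across samples exists. Members given in full are the 3 highest of a family at 20 CPM or more, or the 8 highest or 8 lowest by mean log2 ratio over the 4 classes; of each pathway list, the highest and lowest gene is named. In all, 14 other settings, 1 of them added after the data were seen, covered filters, doublets, clusters, scaling, pseudocount and background.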

Additional observations from a re-analysis of the deposited data

Results flagged for a closer look

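Gsta3, a glutathione transferase of the alpha class, stood on opposite sides in a pair of classes. It had 51.6 CPM (700 UMIs) in cKO and 5.47 CPM (69 UMIs) in control colonocyte-like cells and 3.86 CPM (8 UMIs) in cKO and 17 CPM (37 UMIs) in control enteroendocrine-like cells, and its log2 ratio in colonocyte-like cells was 4.91 above that in enteroendocrine-like cells. With 1 library per genotype this difference was not tested. When cells were thinned to 1700 UMIs its enteroendocrine-like log2 ratio turned to 0.28, and with coarser clusters its colonocyte-like log2 ratio was 0.21. In cKO enteroendocrine-like cells Gsta3 UMIs per cell were at or below those of T or NK-like cells.

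Gsta4, of the same class, had 348 CPM (4721 UMIs) in cKO and 144 CPM (1819 UMIs) in control colonocyte-like cells and 34.2 CPM (71 UMIs) in cKO and 103 CPM (224 UMIs) in control enteroendocrine-like cells. Its log2 ratio in colonocyte-like cells was 2.83 above that in enteroendocrine-like cells, a difference that was not tested. With coarser clusters its colonocyte-like log2 ratio was 0.02.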

How the results depend on the processing

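Without a filter on low genes, members at least 2-fold higher and lower in cKO were 9 and 27 in epithelial-like, 14 and 42 in colonocyte-like, 7 and 23 in cycling-like, and 4 and 32 in enteroendocrine-like cells, and 17 were lower in goblet-like cells. The same shares of all genes were 4.64% and 2.85%, 19.7% and 6.42%, 5.52% and 2.94%, 13.3% and 8.60%, and 4.07%, in that order. At a mean of 50 CPM or more they were 3 and 7 in epithelial-like, 3 and 16 in colonocyte-like, 3 and 2 in goblet-like, 0 and 5 in cycling-like, and 0 and 7 in enteroendocrine-like cells, beside 4.93% and 5.21%, 23.1% and 13.3%, 4.11% and 5.99%, 3.32% and 4.05%, and 7.78% and 6.52% of all genes. With no doublets removed, 5 were higher in goblet-like cells (4.10% of all genes), 6 lower in cycling-like cells (2.06%) and 2 higher in enteroendocrine-like cells (10.2%). In shared clusters only, 9 were lower in epithelial-like (2.64% of all genes) and 7 higher in cycling-like cells (9.71%), and no value could be had for colonocyte-like and goblet-like cells, which have no shared cluster. With the T or NK-like level subtracted, 1 was higher in cycling-like (4.85% of all genes) and 2 in enteroendocrine-like cells (11.0%). Coarser clusters gave 4 higher in colonocyte-like cells (8.33% of all genes), thinning 3 higher in epithelial-like cells (5.90%) and a pseudocount of 10 CPM 8 lower in enteroendocrine-like cells (4.29%). The strict filter gave 0 (12.1%) and the marker score per cell 2 (9.27%) higher in enteroendocrine-like cells. Under median ratio scaling the colonocyte-like counts were 7 higher and 32 lower and the goblet-like counts 11 higher and 5 lower, beside 20.04% and 14.6%, and 5.77% and 4.19%, of all genes. No other alternative moved a count beyond 1.5 times, including the setting added after the data were seen, which left out cells lying in clusters of the other library.

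Log2 ratios that turned were those of Cyp2j6 (0.078) and Gstm1 (-0.44) in colonocyte-like cells with coarser clusters, and Cyp2c55 (1.74) in goblet-like cells with the T or NK-like level subtracted. In shared cycling-like clusters Ces2e (1.92), Gsta3 (-0.094), Sult1b1 (0.48) and the remaining Cyp genes (0.79) turned. In thinned enteroendocrine-like cells Ces1g (1.51), Gsta3 (0.28), Gstt3 (0.038) and the Ces1 sum (1.22) turned. Under each of these settings many more values moved without turning, and most of those are not listed. The cause was not tested. Sult1a1 was at least 2-fold lower, and Akr1c21 at least 2-fold higher, in each class under each alternative that gave a value.

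Few UMIs limit enteroendocrine-like values most, since 386 cKO and 225 control cells hold them. No paired analysis was possible because each genotype has 1 library.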

Other observations

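Some members were also measured in cells outside the 4 epithelial classes, and those given here were chosen after their values were seen. Cyp4f18, which in mouse neutrophils breaks down leukotriene B4, had 235 CPM from 355 UMIs in 436 cKO myeloid-like cells and 186 CPM from 5 UMIs in 10 control ones. Mgst1 had 147 CPM in cKO myeloid-like cells and 0 UMIs in the 10 control cells. Sult2b1 had 129 CPM in cKO and 96.1 CPM in control in T or NK-like cells and 29.8 CPM in cKO and 39.3 CPM in control in epithelial-like cells. In tuft-like cells, 44 in cKO and 53 in control, Mgst3 had 2939.9 CPM in cKO and 1524 CPM in control and Gstm1 had 315 CPM in cKO and 87 CPM in control. The myeloid-like class of control and the tuft-like class of both libraries hold few cells, and no ratio is drawn from them.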
